A study of Mus musculus with 15 samples.

Results

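The enzymes described here break down amino acids and glyoxylate in the liver: Agxt, Pipox, Tat, Hal, Sds, Tdo2, Hpd, Hgd and Gnmt. They were taken as a list of 9 genes, and every probe set annotated to 1 of them was used. Of the 9 genes, 8 had a probe set, with 9 probe sets in all among the 22690 in the series values, because Tdo2 had 2. Sds, which encodes serine dehydratase, had none listed in the annotation used and has no value here. RNA was measured in 6 liver tumours and 6 samples of non-tumorous liver from homozygous Mdr2-KO mice, and in liver of 3 heterozygous Mdr2-KO mice, all aged 16 months. Mdr2, now named Abcb4, exports phospholipid into bile, and mice without it develop chronic bile-driven liver injury and later liver tumours. The 3 heterozygous mice that serve as controls therefore carry the knockout allele as well, on 1 of their copies of the gene. The tumours came from 4 of the 6 knockout mice (mouse 3, mouse 4, and 2 tumours each from mouse 5 and mouse 6), so that each tumour can be set beside the non-tumorous liver of its own mouse. Strain, sex and tumour histology are not given in the sources used here.

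These enzymes are made largely by hepatocytes, which clear surplus amino acids from the blood. Tat, Hpd and Hgd catalyse successive parts of tyrosine breakdown, Hal and Tdo2 start the breakdown of histidine and tryptophan, and Agxt, in mouse a mitochondrial and peroxisomal aminotransferase, turns glyoxylate into glycine and so limits oxalate formation. Gnmt uses S-adenosylmethionine to methylate glycine to sarcosine, and Pipox oxidises sarcosine and pipecolate in peroxisomes. Tat and Tdo2 are textbook targets of glucocorticoids.

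Abcb4 itself gave signals of 122.5 to 681.1 in the tumours and 177.4 to 305.7 in the knockout livers, against 778.9 to 1006.4 in the heterozygous livers. The groups with and without 2 knockout alleles did not overlap. To describe the tissue, 8 marker genes of hepatocytes were taken, of which 7 had a probe set. Their summed signal was 71460 to 85980 in tumours, 80750 to 101000 in knockout livers and 103200 to 110400 in heterozygous livers. The tissue is bulk tissue, so fewer hepatocytes and less RNA per hepatocyte cannot be told apart in any result that follows. The ratio of 3′ to 5′ actin probe signals, a sign of RNA or labelling quality, was 1.51 to 2.06 in tumours, 1.74 to 2.74 in knockout livers and 2.55 to 3.37 in heterozygous livers. The same ratio for Gapdh was 0.787 to 1.07 in tumours, 0.9 to 1.15 in knockout livers and 1.13 to 1.23 in heterozygous livers.

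In tumours, 7 of the 8 measured enzymes were lower than in heterozygous liver and 0 were higher. Agxt showed the largest change, 11.5-fold, and Tat, Hal, Pipox, Gnmt, Hpd and Tdo2 were 1.96-fold to 3.38-fold lower, while Hgd did not pass the test. A gene counts as changed here when limma's moderated test over all 9528 genes measured gave a Benjamini-Hochberg adjusted p below 0.05, and among all genes 6.87% changed in this comparison, 2.94% downward and 3.94% upward. The median log2 change of the 8 enzymes was -1.33, against -0.02 over all genes. In 6 of the 8 genes no tumour reached the lowest heterozygous liver, which was so for 6.13% of all genes.

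**Figure D1:**
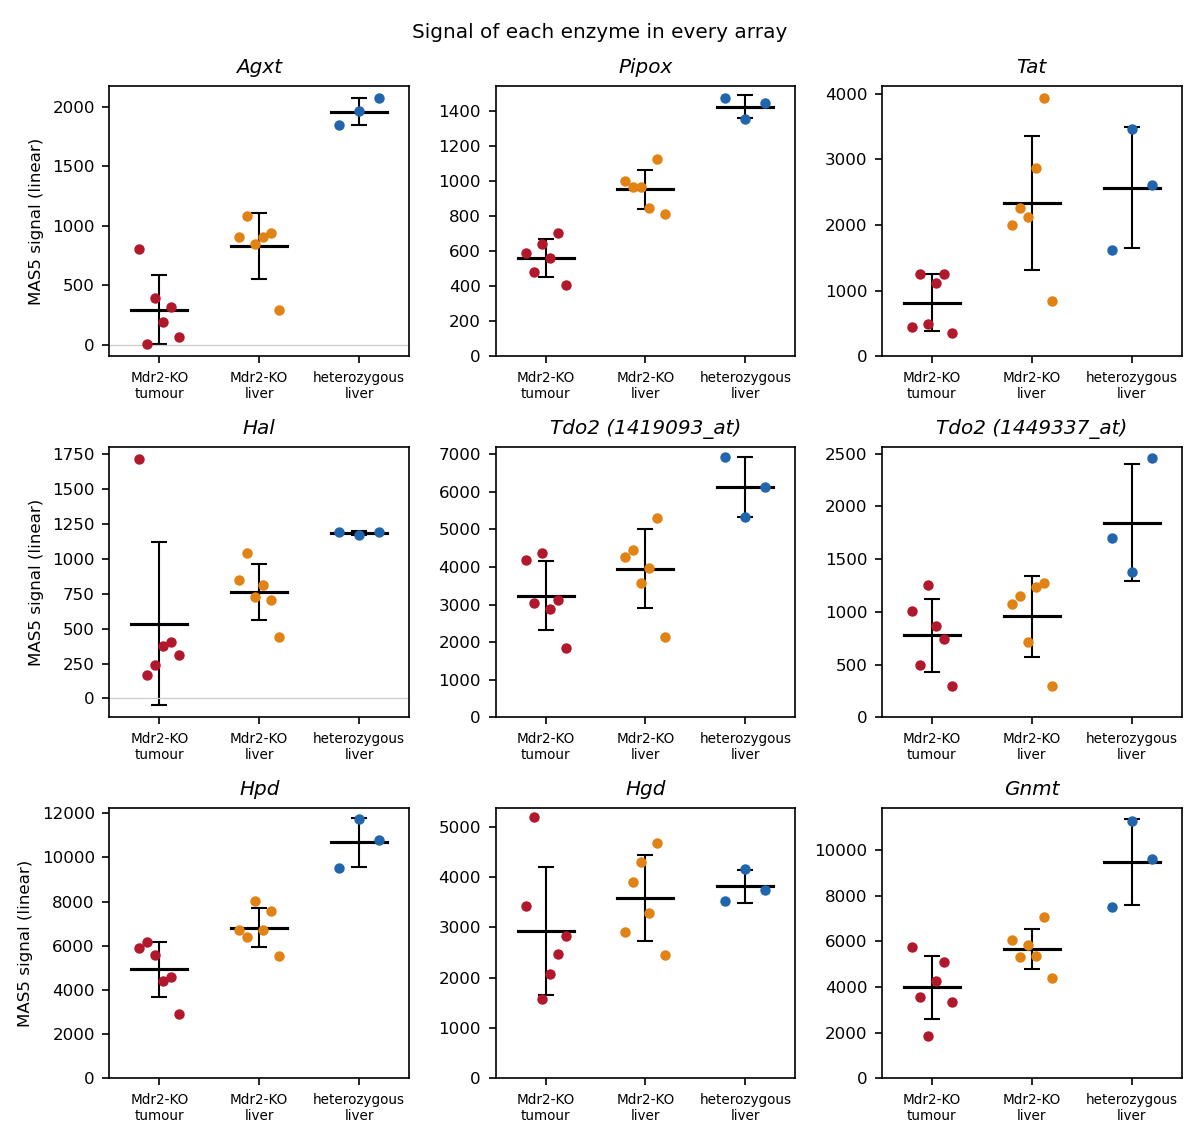
MAS5 signal (linear, arbitrary units) of each of the 9 probe sets in every array, with tumours, knockout livers and heterozygous livers from left to right; bars mark the mean and lines the SD (n = 6, 6 and 3). For Agxt, Pipox, Tat, Hpd, Gnmt and both Tdo2 probe sets the tumours lie below all heterozygous livers, while 1 Hal tumour at 1713 lies above them.

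Agxt had the widest range among tumours. Its signal was 7.0 in the lowest tumour, with a median of 256.85 and a highest value of 801.8, against 1847.6, 1960.8 and 2070 in the 3 heterozygous livers. Every tumour was below every heterozygous liver, and tumour 4 was the lowest. There its signal stood at percentile 20.32 of that array, close to background, whereas tumour 6-2, at 62.6, stood at percentile 58.83. The log2 change was -3.52 ± 0.812 (SE), with an adjusted p of 0.0148 by limma. Without tumour 4 the change was -2.87, with an adjusted p of 0.0045, and without any 1 of the heterozygous livers the adjusted p was 0.0598 to 0.0683.

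Pipox, in contrast, moved by similar amounts in every tumour. Its tumour signals ran from 404.3 through a median of 574.65 to 704.6, against 1475.1, 1352.7 and 1442.7 in heterozygous livers. The groups were far apart, and the log2 change was -1.35 ± 0.17 (SE), a 2.54-fold lower signal, with an adjusted p of 0.000243 by limma. The call was kept when each of the 15 arrays was left out in turn.

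Gnmt, the hepatic glycine N-methyltransferase, had tumour signals of 1841.7 at the lowest, 3923.6 at the median and 5750 at the highest, against 7500.1, 11274.2 and 9619.2 in heterozygous livers. Tumour 5-1 was the lowest and tumour 3 the highest, and no tumour overlapped the heterozygous livers. Its log2 change was -1.32 ± 0.27 (SE), 2.49-fold lower, with an adjusted p of 0.0078 by limma. The adjusted p was 0.0592 without heterozygous liver 2.

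Of the 3 tyrosine enzymes, Hpd, the dioxygenase that forms homogentisate, had the narrowest range among tumours. Its highest tumour was 2.135 times its lowest, against 3.518 for Tat and 3.309 for Hgd. Its signal was 2895.1 in the lowest tumour, 5098.6 at the median and 6181.1 in the highest, against 9524.5, 11742.8 and 10766.3 in heterozygous livers. The 2 groups did not overlap, and the log2 change was -1.16 ± 0.21 (SE), 2.23-fold lower, with an adjusted p of 0.00339 by limma. It too was called whichever of the 15 arrays was left out.

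Tat, the aminotransferase that opens the tyrosine pathway, varied among tumours and among livers alike. It had 358 in the lowest tumour, 800.9 at the median and 1259.6 in the highest, against 1622.5, 3465 and 2613.3 in heterozygous livers. Tumours 3, 5-1 and 6-2 lay at 358 to 488.7 and the other 3 at 1113.1 to 1259.6, all below the lowest heterozygous liver. The log2 change was -1.76 ± 0.45 (SE), with an adjusted p of 0.0256 by limma. This rose to 0.142 without heterozygous liver 2 and 0.102 without heterozygous liver 3.

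Hgd, homogentisate dioxygenase, follows Hpd in the pathway and did not pass the test. Tumour signals were 1569.6 at the lowest, 2653.4 at the median and 5194.3 at the highest, against 3535.4, 4164.4 and 3746.5 in heterozygous livers. Tumour 4 was above every heterozygous liver and the other 5 tumours were below all of them. The log2 change was -0.49 ± 0.286 (SE), with an adjusted p of 0.337 by limma.

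Hal, which removes ammonia from histidine, was nearly constant in the heterozygous livers, at 1192, 1168.3 and 1195.6. The tumours had 171.3 at the lowest, 343.65 at the median and 1713 at the highest. Tumour 3 was above every heterozygous liver, and the other 5, at 171.3 to 406.6, were far below. The log2 change was -1.60 ± 0.465 (SE), with an adjusted p of 0.0464 by limma. The call was kept in 2 of the 15 fits that each left out 1 array, those without tumour 3 (log2 change -2.02, adjusted p 0.000433) and without knockout liver 6 (adjusted p 0.0485). In the other fits the adjusted p reached at most 0.141.

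Tdo2, tryptophan dioxygenase, had the smallest called change. The brighter probe set gave 1849.1 in the lowest tumour and 4367.1 in the highest, against 6938.6, 5338 and 6116.5 in heterozygous livers. Every tumour was below every heterozygous liver, and the log2 change was -0.97 ± 0.269 (SE), 1.96-fold lower, with an adjusted p of 0.0384 by limma. The second probe set gave 298.6 to 1253.8 in tumours, against 1701.7, 1375.8 and 2456, again with no overlap. Its log2 change was -1.34 ± 0.434 (SE), and in a fit with every probe set as a feature its adjusted p was 0.0738, so the 2 probe sets shared the direction and not the call. The brighter probe set was called in 7 of the 15 fits that left out 1 array, and its adjusted p was 0.157 without heterozygous liver 1.

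Because 7 of these genes were lower together in tumours, the 250 bases before the annotated start of transcription are shown for some of them. They are Agxt, which changed most, and 3 others in which a searched motif was found: Pipox, Hal and Gnmt. Tdo2 and Hgd, the latter not called, also held searched motifs and are not printed. The printed sequences are from RefSeq, build GRCm38.p6, 5′ to 3′ along the strand of the gene. They lie at chr1:93134990-93135239 on the plus strand, chr11:77893873-77894122 on the minus strand, chr10:93488518-93488767 on the plus strand and chr17:46729166-46729415 on the minus strand. Capitals mark motif letters.
Agxt: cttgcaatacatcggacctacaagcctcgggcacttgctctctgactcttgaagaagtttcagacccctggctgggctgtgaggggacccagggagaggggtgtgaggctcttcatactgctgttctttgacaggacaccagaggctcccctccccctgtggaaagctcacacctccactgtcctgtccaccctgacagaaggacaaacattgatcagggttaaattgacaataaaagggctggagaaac
Pipox: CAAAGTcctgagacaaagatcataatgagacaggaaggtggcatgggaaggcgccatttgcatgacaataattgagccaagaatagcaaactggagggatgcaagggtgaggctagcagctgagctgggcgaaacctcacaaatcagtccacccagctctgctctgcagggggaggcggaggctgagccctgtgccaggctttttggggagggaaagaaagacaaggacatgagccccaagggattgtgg
Hal: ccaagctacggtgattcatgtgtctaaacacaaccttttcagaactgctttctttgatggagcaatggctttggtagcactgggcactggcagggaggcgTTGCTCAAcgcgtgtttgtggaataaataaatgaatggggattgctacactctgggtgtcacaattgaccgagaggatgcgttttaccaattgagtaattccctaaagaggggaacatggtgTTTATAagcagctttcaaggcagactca
Gnmt: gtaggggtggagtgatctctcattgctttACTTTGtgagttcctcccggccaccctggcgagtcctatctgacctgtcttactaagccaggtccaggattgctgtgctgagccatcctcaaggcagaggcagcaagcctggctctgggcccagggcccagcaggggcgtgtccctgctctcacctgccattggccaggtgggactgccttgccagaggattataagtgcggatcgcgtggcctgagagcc

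Short motifs of liver regulators and the general promoter letters TATAAA, 7 motifs in all, were searched on both strands from 250 bases before to 50 bases after each start. The C/EBP letters TTGCNNAA were in 2 of the 8 windows, Hal (150 bases before its start) and Hgd, and in 10.8% of all 32544 distinct promoters. The HNF4 letters CAAAGT were in 2, Pipox and Gnmt, against 14.4%, and the glucocorticoid receptor letters GNACA and TGTNC, 3 bases apart, were in 1, Gnmt, 20 bases after its start, against 0.476%. The letters TATAAA were in 3 (Hal, Tdo2 and Hgd), against 13.6%. GTTAAT for HNF1, TGTTTAC for FOXA and TGACG for CREB had no match, with shares of 7.13%, 3.66% and 20.9%. Agxt, Tat and Hpd held none of the 7 motifs. A match is a run of letters only, and binding was not measured.

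**Figure D2:**
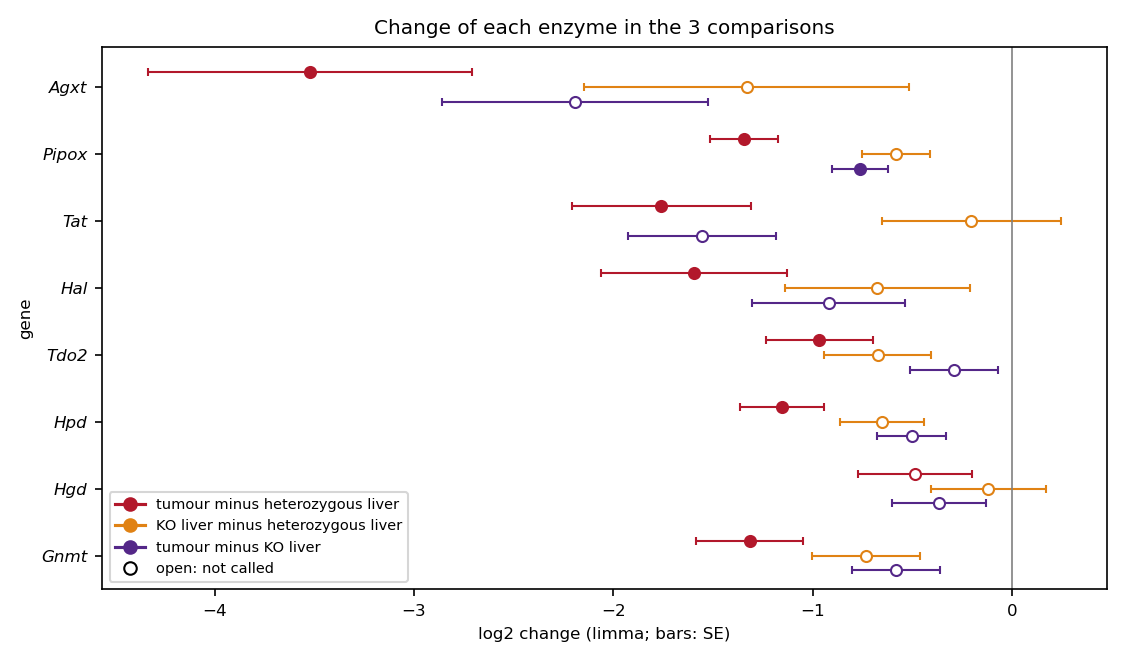
Log2 change of each measured enzyme (x axis; lines are the SE of the limma fit) in tumours minus heterozygous livers, knockout livers minus heterozygous livers and tumours minus knockout livers; filled points passed the adjusted threshold of 0.05. Every point lies below 0, and 8 of them are filled.

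In non-tumorous knockout liver none of the 8 enzymes passed the test against heterozygous liver, although 4 had an unadjusted p below 0.05 in limma, as did 15.7% of all genes. The share of all genes that changed here was 1.68%, with 0.315% lower and 1.36% higher. In 6 of the 8 genes, all but Tat and Hgd, no knockout liver reached the lowest heterozygous liver, which was so for 6.78% of all genes. The median log2 change was -0.66, beside -0.02 over all genes. This comparison and the previous one share the 3 heterozygous livers, so the 2 sets of values are not independent.

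Agxt had 296.7 in the lowest knockout liver, 906.5 at the median and 1086.3 in the highest, all below the heterozygous livers. Its log2 change was -1.33 ± 0.814 (SE), with an adjusted p of 0.460 by limma. Pipox had 810.7 at the lowest, 964.2 at the median and 1127.2 at the highest, and lay between the tumours and the heterozygous livers with no overlap on either side. Its log2 change was -0.58 ± 0.17 (SE), with an adjusted p of 0.0940. Hpd had knockout liver signals of 5530.2 to 8012.8 (log2 change -0.65 ± 0.21, adjusted p 0.127). These were all below the heterozygous livers and overlapped the tumours. Gnmt had 4409.7 to 7056 (log2 change -0.73 ± 0.271, adjusted p 0.188). Hal had 438.3 to 1043.9 (log2 change -0.68, adjusted p 0.524), and Tdo2 had 2150.4 to 5298 by its brighter probe set (log2 change -0.67, adjusted p 0.226). For Tat the knockout livers, at 848.2 to 3937.7, spanned the heterozygous ones (log2 change -0.20, adjusted p 0.873). Hgd, at 2450.8 to 4673.5, did so as well (log2 change -0.12, adjusted p 0.883).

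Knockout liver 6 stood apart from the other 5 non-tumorous livers. It was the lowest of the 6 for 8 of 8 genes, with a median of 41.8% of the heterozygous mean over the enzymes, while the others lay at 63.9% to 76.9%. Its 3′ to 5′ actin ratio was 2.74, the highest of the knockout livers, and its 3′ to 5′ Gapdh ratio was 0.9, the lowest of them. Whether RNA quality has a part in its values was not tested. Without this liver the log2 change of Agxt was -1.06 (adjusted p 0.595), and 0 enzymes were called against heterozygous liver. Knockout liver 5 was the highest of its group for 5 of the 8 genes. When knockout and heterozygous livers were fitted without the tumours, 6 of the 8 enzymes passed the test (Agxt, Pipox, Hal, Tdo2, Hpd and Gnmt, with adjusted p of 0.00346 to 0.045), a fit that leaves out the spread among tumours. In that fit 10.4% of all genes passed.

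**Figure D3:**
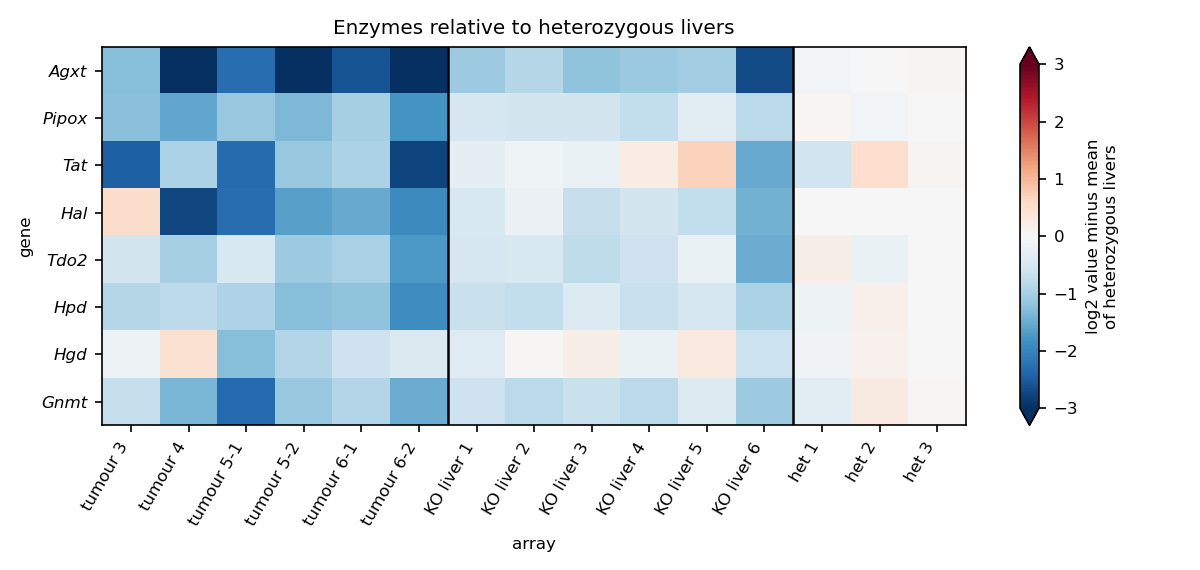
Log2 value of each enzyme (rows) minus the mean of the heterozygous livers, in each of the 15 arrays (columns; tumours, knockout livers, heterozygous livers). The colour scale stops at 3 in either direction, and Agxt lies beyond it in tumours 4, 5-2 and 6-2; knockout liver 6 is the lowest of the knockout livers in every row.

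Set against non-tumorous knockout liver, tumours had lower means for all 8 enzymes, and 1, Pipox, passed the test. A negative log2 change was seen in 48.8% of all genes here. Of all genes 0.136% changed in this comparison, 0.115% lower and 0.0210% higher, and 6 of the 8 enzymes had an unadjusted p below 0.05 in limma, as did 10.3% of all genes. The median log2 change was -0.67, against 0.01 over all genes. Only for Pipox was every tumour below every knockout liver, which was so for 0.567% of all genes. Its log2 change was -0.76 ± 0.14 (SE), 1.70-fold lower, with an adjusted p of 0.0426 by limma. The call was kept in 3 of the 15 fits that left out 1 array, over which the adjusted p ran from 0.0117 to 0.134. These were the fits without knockout liver 6 (0.0498), tumour 5-1 (0.0393) or tumour 6-1 (0.0117). With mouse as a fixed block, in the 4 mice that gave both tissues, the log2 change was -0.75 ± 0.199 and the adjusted p 0.582.

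Agxt and Tat had larger differences and did not pass. For Agxt the log2 change was -2.19 ± 0.668 (SE), with an adjusted p of 0.237 by limma, and for Tat it was -1.56 ± 0.371, with an adjusted p of 0.126. Tat came nearer to the threshold without knockout liver 6, at -1.81 and 0.0608. The changes of Hal (-0.92), Gnmt (-0.58), Hpd (-0.50), Hgd (-0.37) and Tdo2 (-0.29) had adjusted p of 0.304 to 0.696. The order of the group means was thus tumour, knockout liver, heterozygous liver from low to high for all 8 enzymes. Of the neighbours in that order, tumour and knockout liver differed by the test for Pipox alone, and knockout and heterozygous liver for 0 of the 8.

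Each tumour was also set beside the liver of its own mouse. Pipox and Hpd were lower in 6 of 6 tumours, at 49.49% to 86.91% of the own liver for Pipox and 52.35% to 92.12% for Hpd. Agxt, Tat, Hal and Gnmt were lower in 5 of 6. Their ranges were wide, from 0.775% to 107.5% for Agxt, 12.41% to 148.3% for Tat, 21.15% to 236.1% for Hal and 26.1% to 115.8% for Gnmt. Tdo2 was lower in 4 of 6 by its brighter probe set and in 3 of 6 by the other. Hgd was lower in 3 of 6, with 33.59% at the lowest and 157.7% at the highest.

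The enzymes that were low differed from tumour to tumour. Tumour 4 had Agxt at 0.775% and Hal at 21.15% of its own liver, yet Hgd at 157.7%. Tumour 3 had Hal at 236.1% and Agxt near its own liver, 801.8 against 848.2, while Tat was 439.1 against 2128.7 in liver 3. Tumour 5-1 was lower than its liver in 8 of 8 enzymes and below 50% in 5 of them, including Tat at 12.41%, Gnmt at 26.1% and Hgd at 33.59%. Tumour 5-2, from the same mouse, was lower in 8 of 8 and below 50% in 4. The 2 tumours of mouse 6 were unlike each other. Tumour 6-1 was lower than its liver in 3 of 8 enzymes, with a median of 104.1%, and tumour 6-2 in 7 of 8, with a median of 61.44%. Both share knockout liver 6 as their comparison, the liver with the lowest values of its group, and against the heterozygous mean the same 2 tumours had medians of 49.2% and 27.8%.

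**Figure D4:**
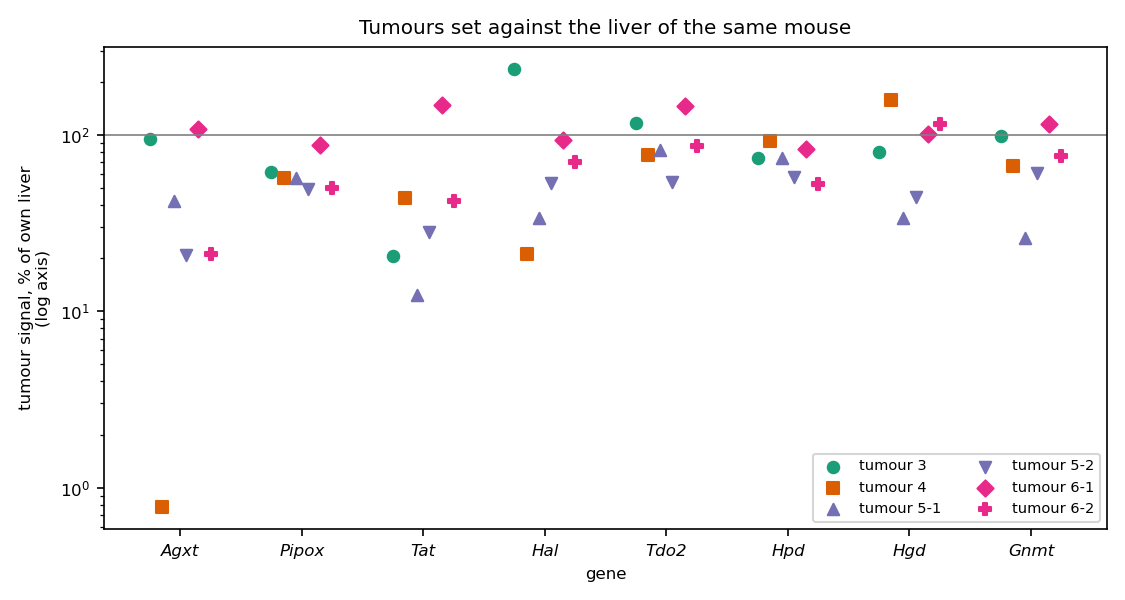
Signal of each tumour as a percentage of the non-tumorous liver of its own mouse (y axis, log scale), for each enzyme (x axis); each symbol is 1 tumour and colours mark the mouse. Pipox lies between 49.49% and 86.91% in all 6 tumours, whereas Agxt runs from 0.775% to 107.5%.

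As a description of how the enzymes vary together, each was correlated over the 15 arrays with the mean of the other 7. Pearson's r was 0.902 for Pipox, 0.876 for Hpd, 0.849 for Gnmt and 0.782 for Tdo2, then 0.765 for Agxt, 0.761 for Hal, 0.744 for Tat and 0.478 for Hgd. The arrays fall into 3 groups that differ in level, and these values contain that difference. With the group means removed r was 0.576 for Pipox, 0.578 for Hpd, 0.563 for Gnmt, 0.635 for Tdo2, 0.37 for Agxt, 0.506 for Hal, 0.415 for Tat and 0.223 for Hgd. Between single enzymes it ran from -0.382 for Agxt with Hgd, through -0.161 for Hgd with Pipox and -0.0982 for Hal with Tat, to 0.754 for Pipox with Tdo2. The 5 genes outside the list whose profile was most like the mean profile of the 8 enzymes were Fah (r = 0.94), Cbs (0.937), Fbxo9 (0.92), Pecr (0.911) and Serpinc1 (0.905). With the group means removed their r was 0.785, 0.703, 0.755, 0.755 and 0.702. Fah encodes the last enzyme of tyrosine breakdown, Cbs makes cystathionine from homocysteine, Pecr is a peroxisomal reductase and Serpinc1 is antithrombin.

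Other enzymes of amino acid catabolism were read from 8 lists, by pathway, with 75 of 89 genes tested. In tumours 10 of the 75 were lower than in heterozygous liver and 0 were higher, 67 had a negative log2 change, and the median was -0.46. Over all genes 2.94% were lower and 3.94% higher, and 52% had a negative log2 change. The 8 enzymes described above had a median of -1.33, 10 markers of pericentral hepatocytes -1.43, 8 markers of periportal hepatocytes -0.64, and all genes -0.02. These lists were drawn up with results of these arrays known, so their counts are a description.

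The tyrosine and phenylalanine list had 2 of 4 genes lower. Fah averaged 2614 in tumours, 3413 in knockout livers and 4162 in heterozygous livers (tumour against heterozygous log2 change -0.69 ± 0.161 SE, adjusted p 0.0155 by limma). Gstz1, which acts between Hgd and Fah, changed by -0.70 ± 0.207 (adjusted p 0.049). Hgd therefore stood between called neighbours of its pathway, with Hpd before it and Gstz1 and Fah after it, but was not itself called. Whether its change differs from theirs was not tested.

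The serine, glycine and glyoxylate list had 2 of 16 lower. Hao1, which makes the glyoxylate that Agxt removes, averaged 788.1 in tumours and 1532 in heterozygous livers (log2 change -1.01 ± 0.216, adjusted p 0.0102). Grhpr, which reduces glyoxylate, changed by -0.90 ± 0.257 (adjusted p 0.0439). In the methionine, choline and sulphur list 2 of 13 were lower. Cbs averaged 565.4 ± 118.4 in tumours (SD, n = 6), 962.9 ± 167.1 in knockout livers and 1546 ± 84.2 in heterozygous livers (SD, n = 3), with a log2 change of -1.46 ± 0.186 and an adjusted p of 0.000244 by limma. Ahcy, which removes the S-adenosylhomocysteine that Gnmt produces, changed by -1.42 ± 0.209 (adjusted p 0.000944). Bhmt, which remethylates homocysteine, had a log2 change of 0.06 between tumour and knockout liver, with an adjusted p of 0.927.

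Haao, a dioxygenase of the kynurenine pathway that Tdo2 opens, was the 1 called gene of 7 in the tryptophan list (log2 change -1.14 ± 0.2, adjusted p 0.00266 by limma). Oat and Got2, transaminases of ornithine and aspartate, were the 2 lower of 12 in the proline, ornithine and glutamate list (-2.16 ± 0.513 and -0.78 ± 0.212, adjusted p 0.0171 and 0.036). Hibadh, of valine breakdown, was 1 of 17 in the branched-chain list (-1.07 ± 0.238, adjusted p 0.0125). No gene was called in the histidine list (3 tested, 0 at an unadjusted p below 0.05) or the lysine list (5 tested, 4 at an unadjusted p below 0.05), a level that 22.4% of all genes reached. The brightest genes there were Ftcd, with a log2 change of -0.54 (adjusted p 0.291), and Phyh, with -0.73 (adjusted p 0.0721). Phyh was placed in the lysine list but acts on phytanic acid, a fatty acid, and not on lysine. The counts of that list and of the 75 genes include it.

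In the other comparisons 0 of the 75 genes were called by limma, with 7 at an unadjusted p below 0.05 between knockout and heterozygous liver, where 15.7% of all genes reached it, and 21 between tumour and knockout liver, where 10.3% did. The median log2 changes were -0.24 and -0.26. The brightest gene of each list had an adjusted p of at least 0.238 for knockout against heterozygous liver (Grhpr, log2 change -0.63) and at least 0.283 for tumour against knockout liver (Fah, log2 change -0.40). Kmo, Glud1, Hibadh, Ftcd, Phyh and Bhmt were the other brightest genes. Among all 75 genes the lowest adjusted p by limma was 0.0623 between knockout and heterozygous liver (Haao, log2 change -0.77). Between tumour and knockout liver the lowest was 0.0598 (Cbs, log2 change -0.76).

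**Figure D5:**
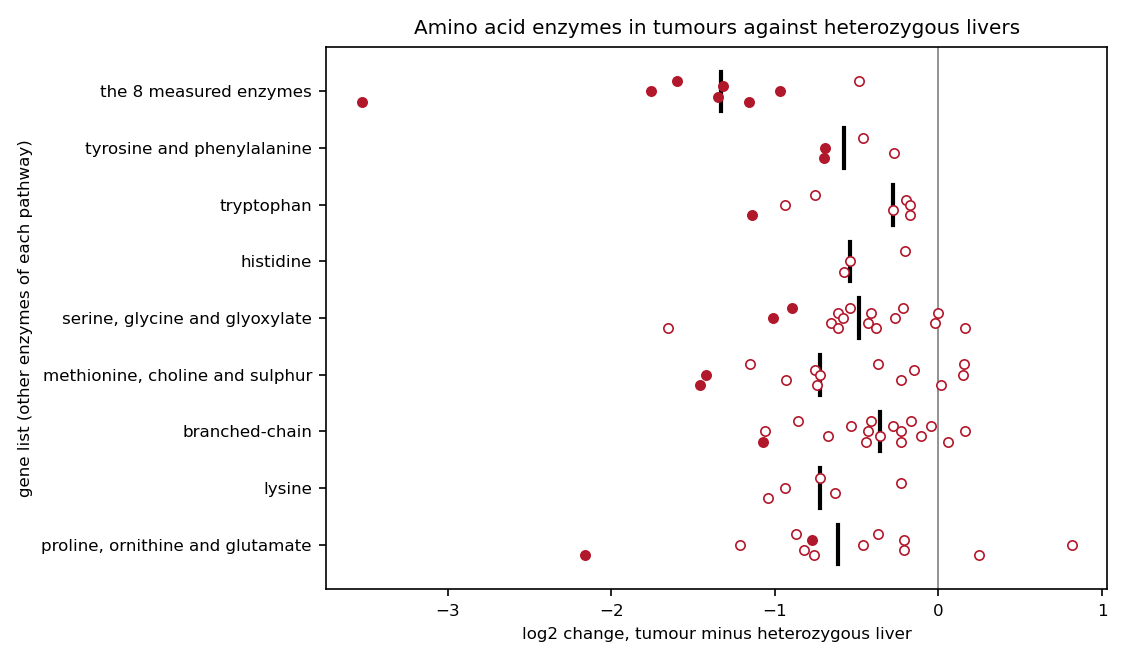
Log2 change in tumours minus heterozygous livers (x axis) for the 8 measured enzymes and for the other tested genes of 8 pathway lists (rows); each circle is 1 gene, filled where it passed the adjusted threshold, and the bar is the median. The 8 enzymes have a median of -1.33, and the medians of the 8 lists lie between -0.73 and -0.28.

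Of 12 regulators of hepatocyte genes, 11 were tested and 2 were lower in tumours than in heterozygous livers. Cebpa, a C/EBP factor of mature hepatocytes, averaged 1615 ± 126.2 in tumours (SD, n = 6), 1899 ± 328.9 in knockout livers and 2553 ± 360.7 in heterozygous livers (SD, n = 3), with a log2 change of -0.65 ± 0.163 (SE) and an adjusted p of 0.022 by limma. Nr1h4, the bile acid receptor FXR, averaged 395.7 in tumours, 459.1 in knockout livers and 667.1 in heterozygous livers (log2 change -0.74 ± 0.145, adjusted p 0.00598). Ppara (-0.79, adjusted p 0.0935), Ppargc1a (0.82, 0.115), Creb1 (-0.46, 0.464), Hnf4a (-0.24, 0.472) and Foxa3 (-0.43, 0.478) were not called. Nor were Foxa1, Foxa2, Nr3c1, the glucocorticoid receptor, and Cebpb, with adjusted p of 0.795 to 0.994. In the other comparisons 0 regulators were called, with 5 between knockout and heterozygous liver and 0 between tumour and knockout liver at an unadjusted p below 0.05 in limma, beside 15.7% and 10.3% of all genes. Among 14 glucocorticoid and fasting response genes, Pck1 was lower in tumours than in heterozygous livers (log2 change -1.64 ± 0.375, adjusted p 0.0144) and Igfbp1 was higher (log2 change 4.36 ± 1, adjusted p 0.0145), with a list median of -0.20. Igfbp1 averaged 1855 ± 2101 in tumours (SD, n = 6) and 40.57 ± 39.54 in heterozygous livers (SD, n = 3). The size of its fold thus rests on dim controls and unequal tumours.

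Most markers of hepatocyte zones and most markers of other liver cells did not pass the test between tumours and heterozygous livers. Over all genes 2.94% were lower and 3.94% higher in that comparison. Of 10 pericentral markers 3 were called lower in tumours than in heterozygous livers (Oat, Rgn and Slc1a2, the last with a log2 change of -1.78). All 10 had a negative change, as did 52% of all genes, and the median was -1.43, beside -1.33 for the enzymes. Of 8 periportal markers 2 were lower (Arg1 and Pck1) and 1 was higher (Cdh1), with a median of -0.64. The 8 periportal markers with a probe set, of 10 listed, summed to 15150 to 33220 in tumours, 30190 to 37480 in knockout livers and 36900 to 38980 in heterozygous livers. The 10 pericentral markers, among them Oat, summed to 2192 to 21930 in tumours, 14160 to 18780 in knockout livers and 23080 to 28480 in heterozygous livers. Of the 7 general hepatocyte markers 1 was called in tumours against heterozygous livers, Serpina1c (log2 change -1.07, adjusted p 0.00542 by limma), and their median log2 change was -0.33. The macrophage markers, 8 of 8 with a probe set, summed to 1096 to 6471 in tumours, 2815 to 4651 in knockout livers and 2004 to 2130 in heterozygous livers. Of these, 3 were higher in tumours than in heterozygous livers: Cd68 (log2 change 1.97, adjusted p 0.000226 by limma), Lyz2 (1.93, 0.0177) and C1qa (1.42, 0.0477). Stellate cell markers summed to 831.4 to 3091 in tumours, 2028 to 4685 in knockout livers and 1367 to 1626 in heterozygous livers, with 1 of 8 called in tumours (Col1a1, log2 change 2.64 ± 0.617 SE, adjusted p 0.0156). Col1a1 averaged 114.6 in tumours and 7.033 in heterozygous livers, the latter below the added constant of 9.1. The ranges of endothelial markers were 330.3 to 1041 in tumours, 809.6 to 1141 in knockout livers and 630.9 to 872.6 in heterozygous livers, with 0 of 7 called and 1 at an unadjusted p below 0.05 in limma. Lymphocyte markers summed to 145.2 to 737.2 in tumours, 215.8 to 363.8 in knockout livers and 201.5 to 249.4 in heterozygous livers, with 1 of 5 called. This was Ptprc (log2 change 1.55, adjusted p 0.0291 by limma), which is made by white blood cells in general, macrophages among them. Jchain, Nkg7, Cd79a and Ms4a1 had adjusted p of 0.305 to 0.973. The group means of Nkg7, Cd79a and Ms4a1 were 19.52 to 25.3, near background, so a change in them could be missed. Bile duct markers, at 44.8 to 213.1 in tumours, 91.1 to 198.1 in knockout livers and 110.4 to 202.4 in heterozygous livers, overlapped between groups, with 0 of 5 called and 0 at an unadjusted p below 0.05 in limma. Group means of these 5 ran from 12.03 (Krt7, heterozygous livers) to 45.73 (Krt19, knockout livers). With array medians of 35.8 to 51.2 these signals are dim, and a change could be missed. The part of cell composition in the change of the enzymes was not tested.

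The 3′ to 5′ actin ratio was higher in every heterozygous liver than in every tumour. With that ratio as a covariate in the fit, 1 of the 8 enzymes, Pipox, was called between tumours and heterozygous livers (log2 change -1.62, adjusted p 0.022 by limma), beside 0.220% of all genes. The log2 changes of the other called enzymes were then -5.68 for Agxt, -2.53 for Tat, -2.16 for Hal, -1.79 for Tdo2, -1.33 for Gnmt and -1.29 for Hpd, with adjusted p of 0.0866 to 0.31. The ratio separates the tumours from the heterozygous livers, so its part and those of the genotype and the tumour tissue cannot be told apart.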

How the data were processed

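Liver RNA was hybridised to Affymetrix arrays, 15 in all. The values deposited by the authors are intensity signals made with MAS5, per the submitters' processing notes, on a linear scale. The version and settings are not given in the sources used here. The mean of the signals, with 2% left out at each end, was 150.1 on every array, and array medians were 35.8 to 51.2. The number of arrays limits the precision.

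A constant of 9.1, at the 20th percentile of the whole table, was added before taking log2, so folds of dim genes are understated. Probe sets above the 40th percentile of their array in at least 3 arrays were kept, and each gene was read from its probe set of highest mean, giving 9528 genes. All 8 measured enzymes passed this filter. limma 3.58.1 with statmod 1.5.0 in R 4.3.3 (lmFit, duplicateCorrelation with mouse as a random block, eBayes with a trend) was fitted to all 15 arrays, with Benjamini-Hochberg adjustment over the 9528 genes. The consensus correlation was -0.0175. The code was tested on simulated data. Each comparison's p-values set the change of a gene against 1 estimate of its spread, shared by all 3 groups. Some tumours share a mouse, and at a consensus correlation of -0.0175 the fit treats them as nearly independent.

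Tumours and livers are paired by the mouse number in the labels. The deviations from the group means over all genes of tumour and liver of 1 mouse correlated at -0.158 to 0.0852 (6 pairs), and those of different mice at -0.101 to 0.171. No array pair held the same values. The enzymes, the gene lists and the motifs were chosen with earlier results of these data known. The genes named beyond the enzymes are, from each pathway list and comparison, the 2 largest called rises and falls or else the brightest gene, all tested regulators, and the 5 genes of the most similar profile. Igfbp1, the cell type markers named, and Haao and Cbs in the comparisons with knockout liver were chosen after their values were seen.

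Alternatives were the constant, the filter, quantile normalization, median centring, the choice of probe set, the mouse block, averaged tumours, 2 groups alone, no trend, the actin ratio as a covariate and leaving out each array. Probe sets were named from the platform annotation, where 20393 pointed to a single gene, 691 to more and 1606 were absent from it. Promoter sequences were RefSeq's, build GRCm38.p6.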

Additional observations from a re-analysis of the deposited data

Results flagged for a closer look

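Among the 18 sets of 6 arrays checked (9 probe sets in tumours and in knockout livers), 2 had an array far from the other 5, where chance gives about 1 in 20. For Agxt, knockout liver 6 was the lowest at 296.7, and its gap to the next liver was 0.808 of the range of the group on the log2 scale. For Hal, tumour 3 was the highest at 1713, and its gap to the next tumour was 0.63 of the range on the same scale. Without tumour 3 the log2 change of Hal between tumours and heterozygous livers was -2.02, with an adjusted p of 0.000433 by limma.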

How the results depend on the processing

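Between tumours and heterozygous livers 7 of the 8 enzymes were called. The count was 1 with 2 groups alone, 1 with the actin ratio as a covariate, and 5 to 7 under the other alternatives. Leaving out 1 array gave 2 to 7, the lowest without heterozygous liver 2. Between knockout and heterozygous livers the count of 0 became 1 with tumours of the same mouse averaged (Pipox) and 6 with 2 groups alone, and leaving out 1 array gave 0 to 1. Between tumours and knockout livers the count of 1 became 0 with no constant, with quantile normalization, with 2 groups alone, with no trend and with the actin covariate. Leaving out 1 array gave 0 to 1. With the replicate block of mouse as a fixed term, in the 4 matched mice, the count was 0 of 8 for enzymes and 0 over all genes. With no replicate block the count in tumours against heterozygous livers was 7. The block changed no other call.

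Over all genes the counts in tumours against heterozygous livers were 655, but 117 with 2 groups alone and 21 with the covariate, and 216 to 782 when 1 array was left out. For knockout against heterozygous livers they were 160, but 994 with 2 groups alone, 21 with the covariate and 34 to 298 with 1 array left out. For tumours against knockout livers they were 13, but 0 with 2 groups alone, 0 with the covariate and 0 to 62 with 1 array left out. With every probe set as a feature the 3 counts were 1031, 293 and 20. With tumours of the same mouse averaged they were 350 for knockout against heterozygous livers and 49 for tumours against knockout livers, and tumours against knockout livers had 4 with no constant. The sign of 3 values changed, none of them called: Hgd in knockout against heterozygous livers was 0.0816 with the covariate, and Tat there was 0.06 without knockout liver 6 and 0.0451 without heterozygous liver 2, in a range of -0.5 to 0.06 over the 15 fits that left out 1 array. The cause was not tested. Of the remaining values of single enzymes, 318 kept their side of the threshold when 1 array was left out and 39 lost a call. Signals near background, such as Agxt in tumour 4, limit the size of its fold: the log2 change against heterozygous livers was -3.77 without a constant and -3.24 with one of 28.8.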
